A study of Mus musculus with 18 samples.

Results

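The 32 genes described here encode proteins of fatty acid transport into mitochondria and of oxidation there, with related enzymes that act on branched chains. They comprise the carnitine shuttle, the acyl-CoA dehydrogenases, the later enzymes of the beta oxidation spiral, the enzymes for unsaturated chains, the electron transfer proteins and a pair of acyl-CoA thioesterases. They were taken by name. For each name the probe set that carries only that symbol was used, or, where a gene had several, the one with the highest mean over all arrays. In this way 31 of the 32 genes had a value, among 19938 genes in all. The exception was Cpt1b, the carnitine palmitoyltransferase 1 of muscle and brown fat, whose probe set on this array also carries a further gene symbol. Hadhb had 2 such probe sets, which both gave a difference of 0.90 between STZ, BEZ and STZ, SD.

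The samples are visceral fat (white adipose tissue, WAT) from male wildtype C57BL/6N mice aged 5 to 6 months, with 1 array per mouse. Con, SD mice (n = 7) received citrate buffer only and ate standard chow (SD). STZ, SD mice (n = 6) were made diabetic with streptozotocin (STZ), a toxin of the insulin-producing beta cells. They received 65 mg/kg into the peritoneum on each of 5 days in a row, at an age of 10 to 16 weeks, and ate the same chow. STZ, BEZ mice (n = 5) had the same injections and, from 2 weeks later and for 8 weeks, chow with bezafibrate (BEZ), a fibrate that activates the peroxisome proliferator-activated receptors (PPARs). The labels give the BEZ content as 0.25% or 0.5% by weight without saying which mouse had which. The model is one of insulin lack caused by a toxin. No group had BEZ without STZ, so BEZ in mice with intact beta cells was not measured.

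In the carnitine shuttle an outer-membrane palmitoyltransferase exchanges coenzyme A for carnitine on a long-chain fatty acid, a carrier takes the acylcarnitine across the inner membrane, and another transferase restores the acyl-CoA. A dehydrogenase chosen by chain length, a hydratase, a hydroxyacyl-CoA dehydrogenase and a thiolase then shorten the chain in rounds, and electrons of the dehydrogenase step reach the respiratory chain through the electron transfer flavoprotein. Many genes of the pathway are known targets of PPAR alpha, and white adipocytes, which store fat, use it less than liver, heart or brown fat do.

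Values are log2 signals after robust multi-array averaging (RMA), so a difference of 1 is 2-fold. A gene was called if its p, adjusted by the Benjamini-Hochberg method, was under 0.10 in limma, a linear model fitted over all genes and all 18 arrays, and differences are given with their standard error (SE). Signals of different genes come from different probes and were not set against each other. Less RNA of these genes per adipocyte and fewer adipocytes in the piece of tissue cannot be told apart in such samples.

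Genes typical of other abdominal organs were high in some mice. The mean log2 signal of 15 pancreas genes lay between 5.77 and 6.15 in all Con, SD mice and in STZ, SD mice 1 to 5, but at 12.95 in STZ, SD mouse 6 and at 11.05, 9.36, 9.06, 8.55 and 5.92 in STZ, BEZ mice 1 to 5. The mean of 18 epididymis and testis genes ranged from 6.67 to 11.39 in the controls, from 5.74 to 11.09 in the STZ, SD mice and from 5.88 to 6.35 in the treated mice. Genes of the white adipocyte itself, adiponectin (Adipoq) and perilipin 1 (Plin1) among them, were high in all groups and lowest in STZ, SD mouse 6. The mean of 11 of these was 12.21 to 12.83 in the controls, 10.63 to 12.72 in the STZ, SD mice and 12.65 to 12.83 in the treated mice. The mean of 11 liver genes was 10.29 in STZ, BEZ mouse 5, 7.42 to 7.82 in the other STZ, BEZ mice, 7.47 to 9.27 in the controls and 6.84 to 7.54 in the STZ, SD mice. Array medians lay between 6.76 and 6.87.

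Across the whole pathway the STZ, BEZ mice formed a tight, high group. The mean of the 31 measured members was 9.36 to 9.85 in the controls with a median of 9.67, and 9.14 to 10.33 in the STZ, SD mice with a median of 9.71. In STZ, BEZ it was 10.27, 10.36, 10.21, 10.26 and 10.37. All STZ, BEZ mice thus lay above all Con, SD mice, and above all STZ, SD mice except STZ, SD mouse 1 at 10.33. That mouse had the highest STZ, SD signal for 26 of the 31 members, and STZ, SD mouse 6 had the lowest for 22. The median SD of a member was 0.29 in the controls, 0.51 in the STZ, SD mice and 0.12 in the treated mice. For all genes the median SD was 0.19, 0.24 and 0.13, so the spread of the members stood out in the groups without BEZ. The SD was smallest in STZ, BEZ for 27 of the 31 members, as it was for 65.1% of all genes.

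**Figure D1:**
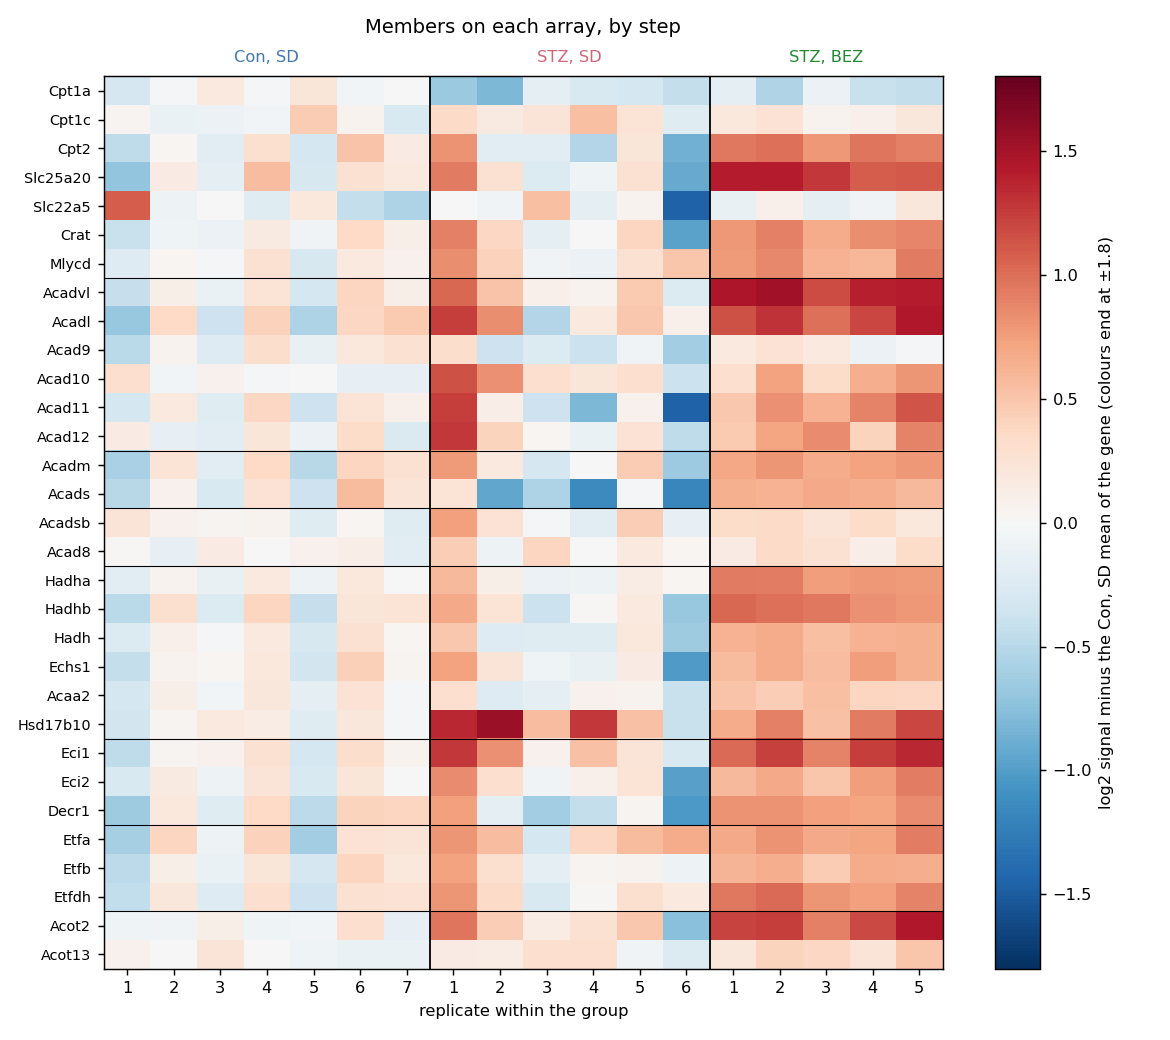
Log2 signal of each of the 31 measured members (lines, ordered by step) in each of the 18 mice (columns), as the difference from the mean of the 7 Con, SD mice; red is higher and blue is lower. STZ, BEZ mice are red for most members, and STZ, SD mice range from red in mouse 1 to blue in mouse 6.

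The comparison STZ, SD vs. Con, SD asks what diabetes alone did to the pathway. Cpt1a fell and Hsd17b10 rose, and these 2 of the 31 members were the only ones called in limma, where 10.3% of all genes were called, 5.82% higher and 4.52% lower. The median difference of the members was 0.10, against -0.03 for all genes. Differences were positive for 21 members and negative for 10, and 7 members had an unadjusted p under 0.05, which 20.3% of all genes had. The groups overlapped for every member, while 1.62% of all genes had groups that did not.

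Cpt1a encodes the outer-membrane palmitoyltransferase of liver and most other tissues, the step that malonyl-CoA inhibits. Its log2 signal was 9.95 to 10.46 in Con, SD (median 10.23), 9.43 to 10.09 in STZ, SD (median 9.87), and 10.07, 9.71, 10.14, 9.85 and 9.82 in STZ, BEZ. All diabetic mice, on either chow, lay below the mean of the controls, and the groups overlapped. Cpt1a fell by 0.44 (SE 0.11) in STZ, SD vs. Con, SD, with an adjusted p of 0.0309 in limma. With any 1 of the 18 mice left out it remained called, with a difference between -0.50 and -0.37. Between STZ, BEZ and STZ, SD the difference was 0.12 (SE 0.12, 95% interval -0.14 to 0.37), with an adjusted p of 0.817 in limma. Against Con, SD the STZ, BEZ difference was -0.33 (SE 0.12), with an adjusted p of 0.146 in limma.

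Hsd17b10 encodes a mitochondrial hydroxyacyl-CoA dehydrogenase that acts on short and branched chains and also serves in the processing of mitochondrial transfer RNA. Its log2 signal was 10.87 to 11.40 in Con, SD (median 11.24), 10.80 to 12.75 in STZ, SD (median 12.11), and 11.87, 12.11, 11.72, 12.13 and 12.40 in STZ, BEZ. The STZ, SD mice were all above the control range except mouse 6, which was below it. Hsd17b10 rose by 0.81 (SE 0.24) in STZ, SD vs. Con, SD, with an adjusted p of 0.0564 in limma. The call was lost without STZ, SD mouse 1, 2 or 4 or Con, SD mouse 7, with an adjusted p of up to 0.138 in limma. It was higher in STZ, BEZ than in Con, SD by 0.85 (SE 0.25, adjusted p = 0.0793 in limma), and differed by 0.04 (SE 0.26, 95% interval -0.51 to 0.59) between STZ, BEZ and STZ, SD.

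Of the members that were not called, Acads had the most negative difference in STZ, SD vs. Con, SD, -0.60 (SE 0.22, adjusted p = 0.125 in limma). Eci1 was at 0.44 (SE 0.20) and Etfa at 0.44 (SE 0.19), with adjusted p-values of 0.217 and 0.201 in limma. The count of members called higher changed with single mice and with covariates. It was 5 without STZ, SD mouse 6, 3 without STZ, SD mouse 3 and 2 without Con, SD mouse 5. Of all genes 14.5%, 13.6% and 9.63% were called in these fits. It was 0 without STZ, SD mouse 1, 2 or 4 or Con, SD mouse 7, with 8.86%, 5.66%, 5.98% and 5.95% of all genes called. It was 14 with the mean of the white adipocyte genes as a covariate, where 12.9% of all genes were called. With the means of the pancreas and the epididymis genes it was 7, where 20% of all genes were called. The count of members called lower was 2 without Con, SD mouse 1 or STZ, SD mouse 1 or 5. Skeletal muscle genes also differed between these groups, with a list mean of 6.57 to 8.37 in the controls, 6.29 to 6.52 in the STZ, SD mice and 7 of 14 genes called lower, and their part in the results was not tested.

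The comparison STZ, BEZ vs. STZ, SD asks what BEZ did in diabetic mice. Of the 31 members 9 rose and 0 fell in limma, where 0.707% of all genes were called, 0.682% higher and 0.0251% lower. These were Cpt2 and Slc25a20 of the shuttle, the dehydrogenases Acadvl and Acads, Hadha, Hadhb, Hadh and Acaa2 of the later steps, and the thioesterase Acot2. The median difference of the members was 0.65, against 0.0076 for all genes, and 30 of the 31 differences were positive. At an unadjusted p under 0.05 there were 21 members higher and 0 lower, which 10.2% of all genes reached in either direction. Significance analysis of microarrays (SAM) called 15 higher and 0 lower, where it called 2.94% of all genes. For 7 members all STZ, BEZ mice lay above all STZ, SD mice, and 1.49% of all genes had groups that did not overlap. By the p-values of all genes, Hadha ranked 7 and Acadvl 13.

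Single mice decided how many members were called here. Without STZ, SD mouse 1, the highest of its group for most members, 21 were called higher, where 3.54% of all genes were called. Without STZ, SD mouse 2, 3 or 4 there were 2, 3 and 1, and without STZ, BEZ mice 1 to 5 there were 1, 1, 2, 1 and 2. With 1 of the latter mice left out, 0.0552% to 0.221% of all genes were called. Hadha was the only member called with any 1 of the 18 mice left out. The median difference lay between 0.49, without STZ, SD mouse 6, and 0.77, without STZ, SD mouse 1, so that the size of the difference moved less than the count.

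The white adipocyte genes moved in the same direction in this comparison: 11 of 11 had a positive difference, with a median of 0.73, an unadjusted p under 0.05 for 11 and an adjusted p under 0.10 for 0 in limma. In STZ, SD vs. Con, SD 11 of 11 were negative, with Agpat2 at -1.37 and Dgat2 at -1.66 called lower in limma. Adipoq was at -0.10 and Fabp4 at -0.04 there. The genes of this list thus differed unequally between groups, and whether their mean follows adipocyte content was not tested. With this mean as a covariate, 0 members were called and their median difference was 0.20. Of all genes 0.0301% were called in that fit. With the means of the pancreas and the epididymis genes as covariates, 20 were called higher, while the share of all genes called rose from 0.707% to 12.6%. Without the 5 arrays with high pancreas genes, which left 1 STZ, BEZ mouse, the median difference of the members was 0.57. A further fit left out the 7 Con, SD and STZ, SD arrays with high genes of other organs, chosen after seeing the data. These were arrays with an epididymis and testis mean over 8, and STZ, SD mouse 6. Liver and muscle genes were not used in this choice. In that fit 0 members were called, where 0.0702% of all genes were called, and the median was 0.27.

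**Figure D2:**
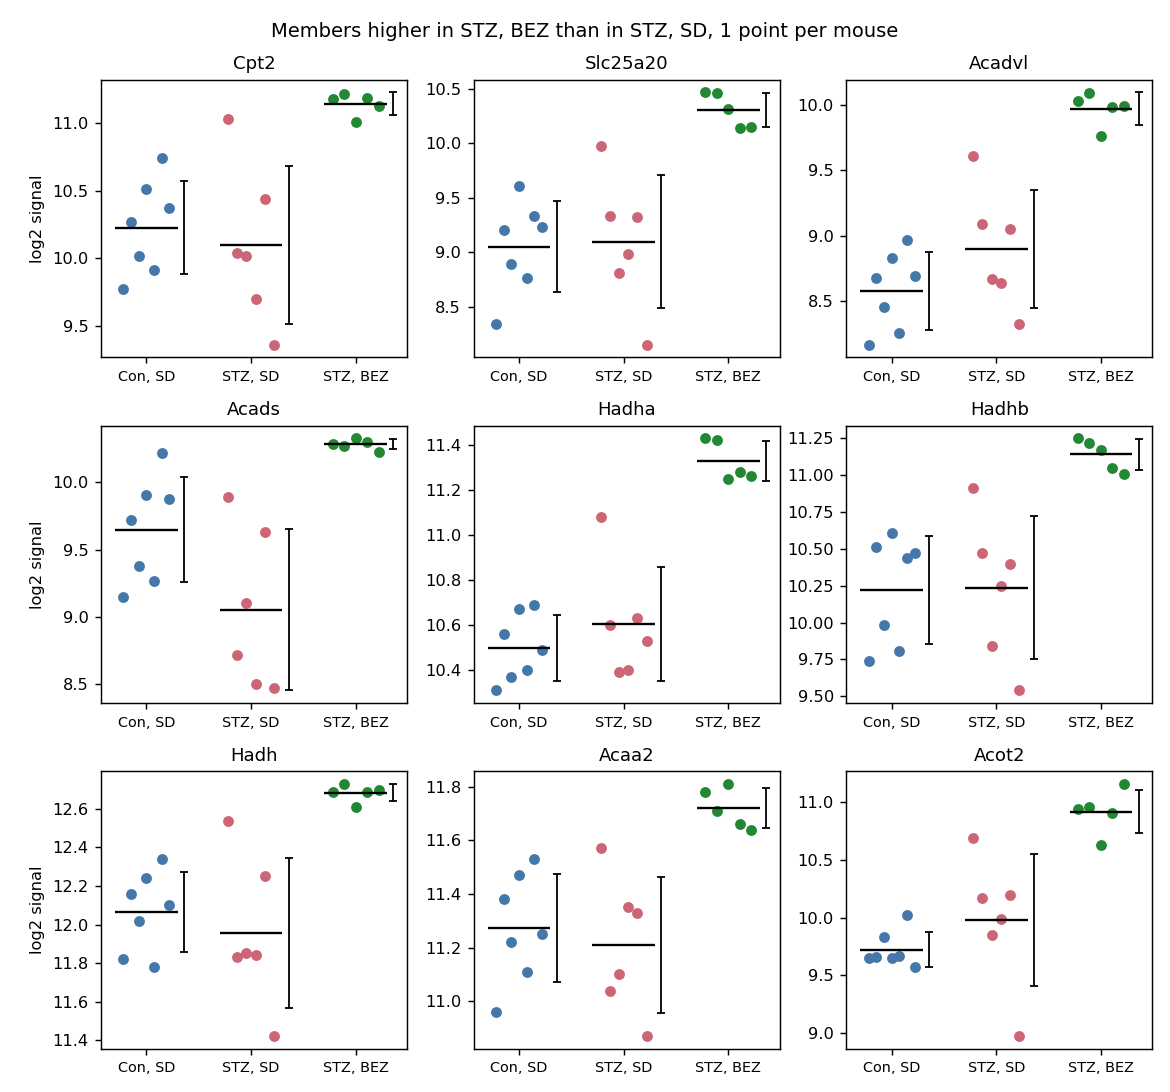
Log2 signal of the 9 members called higher in STZ, BEZ than in STZ, SD, with 1 point per mouse for Con, SD (n = 7), STZ, SD (n = 6) and STZ, BEZ (n = 5); the horizontal line is the group mean and the bar beside it the SD. The STZ, BEZ points lie together at the top of each panel, and for Cpt2 and Acot2 the highest STZ, SD mouse reaches into them.

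In the carnitine shuttle 2 of 7 measured members rose in STZ, BEZ vs. STZ, SD. Slc25a20, the carnitine-acylcarnitine carrier of the inner membrane, had a log2 signal of 8.34 to 9.61 in Con, SD (median 9.20), 8.15 to 9.98 in STZ, SD (median 9.15), and 10.47, 10.46, 10.32, 10.14 and 10.15 in STZ, BEZ. All STZ, BEZ mice were above all others. It was 2.31-fold higher than in STZ, SD (log2 1.21, SE 0.26, adjusted p = 0.0642 in limma) and 2.38-fold higher than in Con, SD (log2 1.25, SE 0.25, adjusted p = 0.0129 in limma). Cpt2, the inner-membrane palmitoyltransferase that restores the acyl-CoA, was at 9.77 to 10.74 in Con, SD (median 10.27), 9.36 to 11.03 in STZ, SD (median 10.03), and 11.18, 11.22, 11.01, 11.19 and 11.13 in STZ, BEZ. The lowest STZ, BEZ mouse was just below STZ, SD mouse 1 and above every other mouse without BEZ. Cpt2 was 2.07-fold higher than in STZ, SD (log2 1.05, SE 0.23, adjusted p = 0.0673 in limma) and 1.89-fold higher than in Con, SD (log2 0.92, SE 0.22, adjusted p = 0.034 in limma).

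Of the carnitine palmitoyltransferase 1 genes, Cpt1a was not called in STZ, BEZ vs. STZ, SD, and the muscle form Cpt1b has no value of its own. Cpt1c, the form of the brain, was at -0.06 (SE 0.12), the single negative difference of the pathway in this comparison. Slc22a5, the carnitine importer of the plasma membrane, was at 0.17 (SE 0.30, 95% interval -0.46 to 0.80). Crat, the carnitine acetyltransferase, was at 0.72 (SE 0.23, adjusted p = 0.247 in limma) and Mlycd, which breaks down malonyl-CoA, at 0.45 (SE 0.15, adjusted p = 0.267 in limma). Both were called against Con, SD, Crat with 0.81 (SE 0.22, adjusted p = 0.0561 in limma) and Mlycd with 0.76 (SE 0.14, adjusted p = 0.0109 in limma).

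Among the dehydrogenases for long chains, 1 of 6 rose in STZ, BEZ vs. STZ, SD. Acadvl, the very long-chain acyl-CoA dehydrogenase of the inner membrane, had a log2 signal of 8.17 to 8.97 in Con, SD (median 8.68), 8.33 to 9.61 in STZ, SD (median 8.86), and 10.03, 10.09, 9.76, 9.98 and 9.99 in STZ, BEZ. All STZ, BEZ mice were above all others. Acadvl was 2.10-fold higher than in STZ, SD (log2 1.07, SE 0.19, adjusted p = 0.0354 in limma) and 2.62-fold higher than in Con, SD (log2 1.39, SE 0.18, adjusted p = 0.00126 in limma), the largest difference of the members in the latter comparison. Its promoter window in RefSeq holds the nuclear receptor half-site AGGTCA, on the strand of the gene, and is shown because Acadvl is the single member called in STZ, BEZ vs. STZ, SD whose window has such a match. Cpt1a, Cpt1c, Acadm and Echs1 have one too. The stretch from 110 to 51 bases before the start, at chr11:70015479-70015538 on the minus strand of GRCm38.p6, is given with the half-site in capitals.

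Acadvl: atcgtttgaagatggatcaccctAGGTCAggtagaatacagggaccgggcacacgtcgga

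Acadl, the long-chain acyl-CoA dehydrogenase, was at 0.83 (SE 0.28, adjusted p = 0.272 in limma) in STZ, BEZ vs. STZ, SD and was called against Con, SD, with 1.21 (SE 0.27, adjusted p = 0.0222 in limma). Acad11 was at 0.99 (SE 0.33, adjusted p = 0.265 in limma), Acad12 at 0.43 (SE 0.22), Acad9 at 0.32 (SE 0.16) and Acad10 at 0.16 (SE 0.20) against STZ, SD. None of these 4 was called in any comparison in limma. SAM called Acad10, Acad11 and Acad12 higher against Con, SD, where it called 23.7% of all genes. Acad9 also serves as an assembly factor of respiratory complex I, and was at 0.09 (SE 0.16, 95% interval -0.23 to 0.42) against Con, SD.

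Of the pair for medium and short chains, Acads, the short-chain acyl-CoA dehydrogenase, rose in STZ, BEZ vs. STZ, SD. Its log2 signal was 9.15 to 10.22 in Con, SD (median 9.72), 8.47 to 9.89 in STZ, SD (median 8.91), and 10.29, 10.27, 10.33, 10.30 and 10.23 in STZ, BEZ. The STZ, BEZ mice lay close together and above all others, if barely above the highest control. Acads was 2.35-fold higher than in STZ, SD (log2 1.24, SE 0.24, adjusted p = 0.0594 in limma), the largest difference of the members in this comparison. Against Con, SD it was not called, at 0.64 (SE 0.24, adjusted p = 0.155 in limma). In limma Acads was the only member called against STZ, SD and not against Con, SD. Its median in STZ, SD was the lowest of the groups. Acadm, the medium-chain acyl-CoA dehydrogenase, was at 0.66 (SE 0.22, adjusted p = 0.284 in limma) against STZ, SD and was called against Con, SD, with 0.73 (SE 0.22, adjusted p = 0.0771 in limma).

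The 2 dehydrogenases of branched chains were called in no comparison in limma. SAM called both higher in STZ, BEZ vs. Con, SD, where it called 23.7% of all genes. Acadsb, which acts in the breakdown of isoleucine, was at 0.11 (SE 0.14, 95% interval -0.19 to 0.40) in STZ, BEZ vs. STZ, SD, and Acad8, which acts in that of valine, at 0.09 (SE 0.10, 95% interval -0.12 to 0.29). Against Con, SD they were at 0.29 (SE 0.14) and 0.24 (SE 0.10), with adjusted p-values of 0.275 and 0.181 in limma.

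In the later steps of the spiral 4 of 6 members rose in STZ, BEZ vs. STZ, SD. Hadha and Hadhb encode the subunits of the mitochondrial trifunctional protein, which carries the hydratase, the long-chain hydroxyacyl-CoA dehydrogenase and the thiolase. Hadha had a log2 signal of 10.31 to 10.69 in Con, SD (median 10.49), 10.39 to 11.08 in STZ, SD (median 10.56), and 11.43, 11.42, 11.25, 11.28 and 11.26 in STZ, BEZ. Hadhb was at 9.74 to 10.61 in Con, SD (median 10.44), 9.54 to 10.91 in STZ, SD (median 10.33), and 11.25, 11.22, 11.17, 11.05 and 11.01 in STZ, BEZ. For both, all STZ, BEZ mice were above all others, and STZ, SD mouse 1 came nearest. Hadha was 1.65-fold higher than in STZ, SD (log2 0.72, SE 0.11, adjusted p = 0.0107 in limma) and 1.77-fold higher than in Con, SD (log2 0.83, SE 0.11, adjusted p = 0.00124 in limma). Hadhb was 1.87-fold higher than in STZ, SD (log2 0.90, SE 0.21, adjusted p = 0.0856 in limma) and 1.88-fold higher than in Con, SD (log2 0.91, SE 0.20, adjusted p = 0.0224 in limma).

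The genes of the 2 subunits lie head to head. In RefSeq the starts are at chr5:30154980 on the minus strand for Hadha and chr5:30155253 on the plus strand for Hadhb (GRCm38.p6), with 272 bases between them, so that their promoter windows share 228 bases. The 250 bases before the Hadhb start, at chr5:30155003-30155252, are given on the plus strand because they stand before both genes. They hold no AGGTCA on either strand, and nothing is in capitals.

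Hadhb: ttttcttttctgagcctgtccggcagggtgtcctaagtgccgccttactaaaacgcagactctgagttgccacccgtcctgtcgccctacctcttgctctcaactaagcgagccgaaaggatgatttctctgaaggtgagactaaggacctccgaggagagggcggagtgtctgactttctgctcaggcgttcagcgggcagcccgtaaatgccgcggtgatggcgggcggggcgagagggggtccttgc

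Hadh, the hydroxyacyl-CoA dehydrogenase of medium and short chains, had a log2 signal of 11.78 to 12.34 in Con, SD (median 12.10), 11.42 to 12.54 in STZ, SD (median 11.85), and 12.69, 12.73, 12.61, 12.69 and 12.70 in STZ, BEZ. It was 1.66-fold higher than in STZ, SD (log2 0.73, SE 0.15, adjusted p = 0.0641 in limma) and 1.54-fold higher than in Con, SD (log2 0.62, SE 0.15, adjusted p = 0.0312 in limma). Acaa2, the thiolase of the matrix, was at 10.96 to 11.53 in Con, SD (median 11.25), 10.87 to 11.57 in STZ, SD (median 11.22), and 11.78, 11.71, 11.81, 11.66 and 11.64 in STZ, BEZ. For Hadh and Acaa2 too, no STZ, BEZ mouse overlapped the other groups. Acaa2 was 1.42-fold higher than in STZ, SD (log2 0.51, SE 0.12, adjusted p = 0.0858 in limma) and 1.36-fold higher than in Con, SD (log2 0.45, SE 0.12, adjusted p = 0.0437 in limma). The 2 others of these steps were not called: Echs1, the enoyl-CoA hydratase of short chains, was at 0.66 (SE 0.22, adjusted p = 0.268 in limma), and Hsd17b10 was at 0.04.

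The 3 enzymes that prepare unsaturated chains were not called against STZ, SD, but all 3 were called higher against Con, SD. Decr1, a dienoyl-CoA reductase, was at 1.02 (SE 0.26, adjusted p = 0.114 in limma) against STZ, SD and 0.79 (SE 0.25, adjusted p = 0.098 in limma) against Con, SD. The enoyl-CoA isomerases Eci1 and Eci2 were at 0.70 (SE 0.22, adjusted p = 0.23 in limma) and 0.61 (SE 0.22, adjusted p = 0.317 in limma) against STZ, SD. Against Con, SD, Eci1 was 2.22-fold higher (log2 1.15, SE 0.21, adjusted p = 0.00958 in limma) and Eci2 1.61-fold higher (log2 0.68, SE 0.21, adjusted p = 0.091 in limma).

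Electron transfer had the same pattern, with 0 of 3 called against STZ, SD in limma and 3 of 3 called higher against Con, SD. Against STZ, SD 2 of these 3 had an unadjusted p under 0.05, and SAM called both, Etfb and Etfdh. Etfdh, the ubiquinone oxidoreductase that passes the electrons to the respiratory chain, was at 0.65 (SE 0.17, adjusted p = 0.141 in limma) against STZ, SD and at 0.88 (SE 0.17, adjusted p = 0.0109 in limma) against Con, SD. The flavoprotein subunits Etfa and Etfb were at 0.32 (SE 0.21) and 0.46 (SE 0.16) against STZ, SD, with adjusted p-values of 0.669 and 0.288 in limma. Against Con, SD they were at 0.76 (SE 0.20, adjusted p = 0.0511 in limma) and 0.61 (SE 0.15, adjusted p = 0.0397 in limma).

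Acot2, a thioesterase of the matrix that frees long-chain fatty acids from coenzyme A, had a log2 signal of 9.57 to 10.02 in Con, SD (median 9.66), 8.97 to 10.69 in STZ, SD (median 10.08), and 10.94, 10.96, 10.63, 10.91 and 11.16 in STZ, BEZ. STZ, BEZ mouse 3 was below STZ, SD mouse 1, and all other STZ, BEZ mice were above every mouse without BEZ. Acot2 was 1.92-fold higher than in STZ, SD (log2 0.94, SE 0.20, adjusted p = 0.0662 in limma) and 2.29-fold higher than in Con, SD (log2 1.197, SE 0.20, adjusted p = 0.00651 in limma). Acot13, a related thioesterase, was at 0.24 (SE 0.10, adjusted p = 0.397 in limma) against STZ, SD and at 0.34 (SE 0.10, adjusted p = 0.0645 in limma) against Con, SD.

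**Figure D3:**
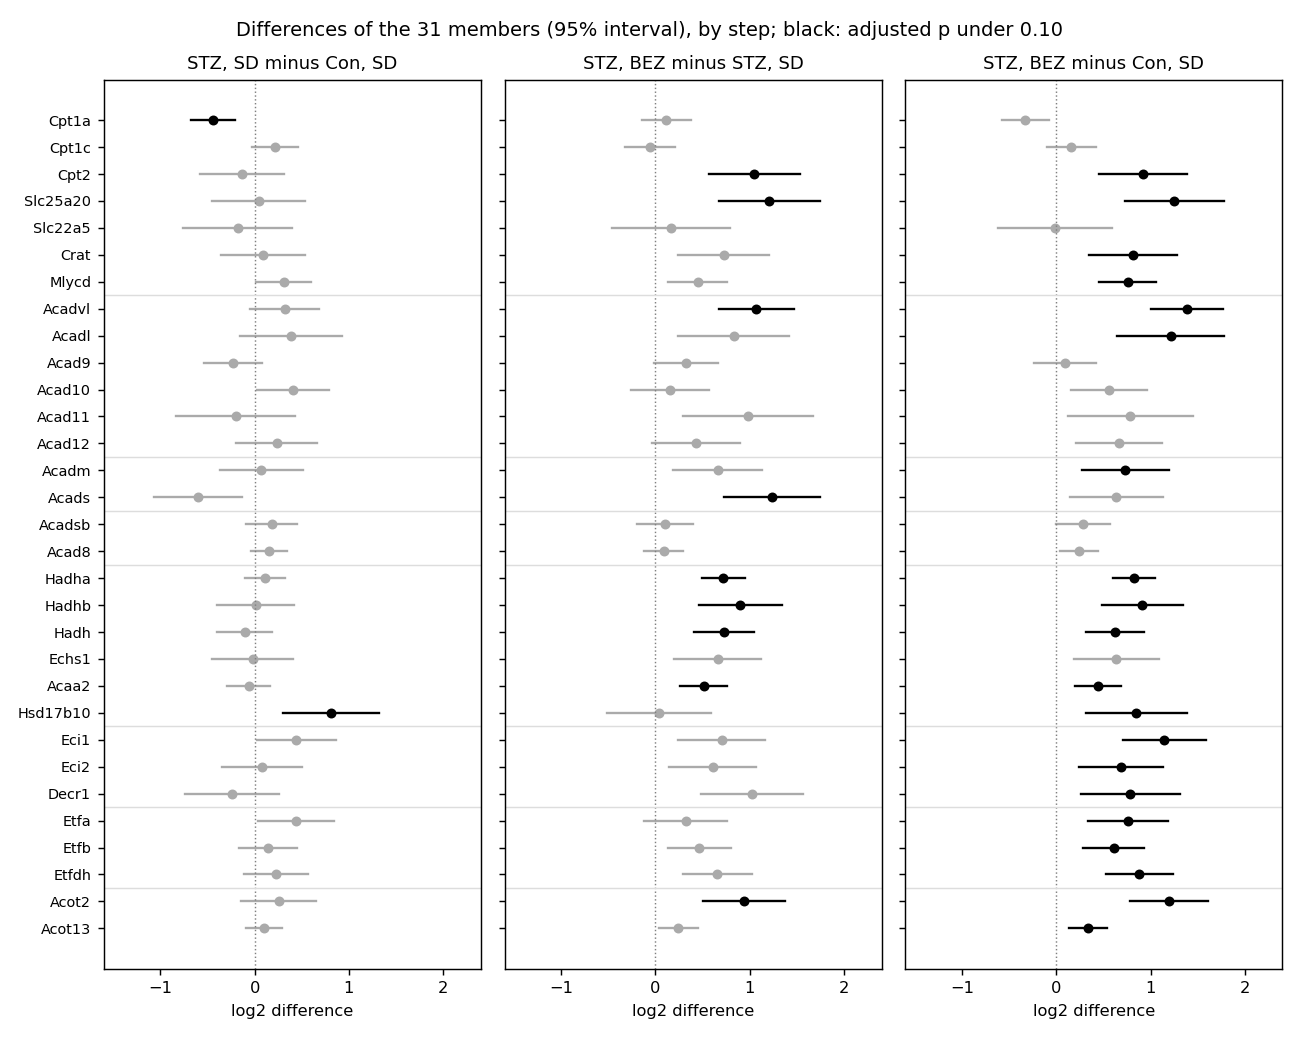
Log2 difference of each of the 31 measured members (lines, grouped by step) in STZ, SD minus Con, SD, STZ, BEZ minus STZ, SD and STZ, BEZ minus Con, SD, with the 95% interval; black marks an adjusted p under 0.10 in limma. Differences are spread around 0 in the left panel, with Cpt1a and Hsd17b10 in black, and lie mostly to the right of 0 in the others, with 9 and 20 in black.

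The comparison STZ, BEZ vs. Con, SD sets the treated diabetic mice against healthy ones. Of the 31 members 20 rose and 0 fell in limma, where 5.95% of all genes were called, 4.57% higher and 1.38% lower. At an unadjusted p under 0.05 there were 26 members higher and 1 lower, while 18.3% of all genes had such a p in either direction. SAM called 27 higher and 1 lower, Cpt1a, where it called 23.7% of all genes. The median difference of the members was 0.73, against -0.0062 for all genes, and for 23 members all STZ, BEZ mice lay above all Con, SD mice, where 6.8% of all genes had groups that did not overlap. This comparison shares the STZ, BEZ mice with STZ, BEZ vs. STZ, SD, so their calls are not independent. In all, 8 members were called in both and 12 only here, and whether the differences themselves differ was not tested. By step, the members called higher were 4 of 7 of the shuttle, 2 of 6 dehydrogenases for long chains, 1 of 2 for medium and short chains, 0 of 2 for branched chains, 5 of 6 of the later steps, 3 of 3 for unsaturated chains, 3 of 3 of electron transfer and 2 of 2 thioesterases.

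The 11 members not called against Con, SD in limma were Cpt1a, Cpt1c, Slc22a5, Acad8, Acad9, Acad10, Acad11, Acad12, Acads, Acadsb and Echs1. Of the 11, SAM called Cpt1a lower, left Cpt1c, Slc22a5 and Acad9 uncalled, and called the rest higher. The differences of the 11 ran from -0.33 for Cpt1a to 0.79 for Acad11 (SE 0.32, adjusted p = 0.19 in limma). The count of 20 was 11 without STZ, BEZ mouse 2 and 12 without STZ, BEZ mouse 5, and lay between 15 and 25 without any other mouse. Of all genes 2.1% were called without STZ, BEZ mouse 2 and 2.16% without mouse 5. Without any other mouse the share was 3.29% to 10.5%. Epididymis and testis genes were lower in STZ, BEZ than in Con, SD, with 18 of 18 differences negative and 2 called, and pancreas genes higher, with 5 of 15 called. With the means of both as covariates 26 members were called higher, where 20.5% of all genes were called. There were 24 with the white adipocyte mean, where 8.84% of all genes were called. Without the arrays of Con, SD and STZ, SD with high genes of other organs there were 24, where 11.8% were called. Without the 5 arrays with high pancreas genes, which left 1 STZ, BEZ mouse, the median difference of the members was 0.79. The mouse left there, STZ, BEZ mouse 5, had the highest liver gene mean of all mice, 10.29, and the part of liver genes was not tested.

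Neighbours of the pathway were taken from 5 lists with 41 measured genes. In STZ, BEZ vs. STZ, SD limma called 0 of the 41, where 0.707% of all genes were called. At an unadjusted p under 0.05 there were 11 higher, while 10.2% of all genes had such a p in either direction. SAM called 3 higher, Acaca, Coq10b and Acat1, where it called 2.94% of all genes. Acaca, the acetyl-CoA carboxylase that makes malonyl-CoA for fatty acid synthesis, had the largest of these differences, 1.55 (SE 0.41, adjusted p = 0.138 in limma). Acat1, the acetoacetyl-CoA thiolase of the matrix, was at 0.73 (SE 0.19, adjusted p = 0.138 in limma). Ppara, the receptor that fibrates activate, was at 0.48 (SE 0.17, adjusted p = 0.32 in limma). Of the other lists, Slc25a29, a carrier of basic amino acids, was at -0.17 (SE 0.09, adjusted p = 0.541 in limma) and Coq10a, a ubiquinone-binding protein, at 0.23 (SE 0.10, adjusted p = 0.414 in limma).

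In STZ, SD vs. Con, SD limma called 4 of the 41 higher and 1 lower, where 10.3% of all genes were called, so the count is near that of genes in general. Ppargc1a, the PPAR coactivator PGC1 alpha that drives mitochondrial genes, had a log2 signal of 6.85 to 7.50 in the controls and 7.82 to 9.01 in STZ, SD mice, and was at 8.98, 8.84, 8.60, 8.56 and 8.98 in STZ, BEZ. No diabetic mouse overlapped the controls. It rose by 1.27 (SE 0.17, adjusted p = 0.00514 in limma) in STZ, SD vs. Con, SD and was at 0.32 (SE 0.19, adjusted p = 0.626 in limma) in STZ, BEZ vs. STZ, SD.

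Acacb, the acetyl-CoA carboxylase whose malonyl-CoA acts on the shuttle, rose by 1.12 (SE 0.33, adjusted p = 0.0562 in limma) in STZ, SD vs. Con, SD. Etfbkmt, a methyltransferase of the flavoprotein subunit Etfb, rose by 1.02 (SE 0.27, adjusted p = 0.0374 in limma), and Aldh9a1, a dehydrogenase of carnitine synthesis, by 0.43 (SE 0.14, adjusted p = 0.0724 in limma). Oxct1, which lets tissues use ketone bodies, fell by 0.88 (SE 0.25, adjusted p = 0.0475 in limma). Against Con, SD, STZ, BEZ mice had 6 of the 41 higher and 0 lower in limma, where 4.57% and 1.38% of all genes were called. At an unadjusted p under 0.05 there were 14 higher and 2 lower, while 18.3% of all genes had such a p. SAM called 22 higher and 2 lower, Slc25a29 and Slc52a3, where it called 23.7% of all genes. The 6 were Acacb at 1.98 (SE 0.35, adjusted p = 0.00864 in limma), Ppargc1a at 1.58, Etfbkmt at 1.33, Ppara at 0.90, Acat1 at 0.69 and Aldh9a1 at 0.67.

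A few genes typical of brown fat and of mitochondrial mass rose in STZ, BEZ as well. The mean of 10 thermogenic adipocyte genes was 6.48 to 7.26 in the controls, 6.36 to 7.09 in the STZ, SD mice and 7.70, 7.50, 7.56, 7.30 and 7.52 in STZ, BEZ, so that the treated mice did not overlap the others. In STZ, BEZ vs. STZ, SD 2 of the 10 were called: Cox8b, a subunit of cytochrome c oxidase typical of brown fat and muscle, was 7.27-fold higher (log2 2.86, SE 0.31, adjusted p = 0.000793 in limma) and Cidea, a lipid droplet protein of brown fat, was at 1.65 (SE 0.35, adjusted p = 0.0641 in limma). In STZ, SD vs. Con, SD 3 of the 10 were called lower and 0 higher, where 4.52% of all genes were called lower. Cox8b was among these 3, at -0.84 (SE 0.28, adjusted p = 0.0917 in limma). Against Con, SD, Cox8b was 4.07-fold higher in STZ, BEZ (log2 2.02, SE 0.30, adjusted p = 0.00312 in limma). Ucp1, the uncoupling protein that defines brown fat, was at 0.42 (SE 0.29, adjusted p = 0.694 in limma) in STZ, BEZ vs. STZ, SD. It was at 6.31, 5.52, 5.93, 5.51 and 5.28 in STZ, BEZ, and the highest value of all mice, 7.24, was in Con, SD mouse 2. Of the 10 differences against STZ, SD 9 were positive, among them Elovl3 at 1.56 (not called), Dio2 at 0.06 and Zic1 at 0.04. Prdm16 was at -0.17.

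The mean of 11 genes of mitochondrial mass was 10.20 to 10.47 in the controls, 9.91 to 10.55 in the STZ, SD mice and 10.70, 10.67, 10.63, 10.51 and 10.54 in STZ, BEZ. Of these, 1 was called in STZ, BEZ vs. STZ, SD, Cs, the citrate synthase, at 0.92 (SE 0.20, adjusted p = 0.0653 in limma), and 4 were called against Con, SD. The median difference in STZ, BEZ vs. STZ, SD was 0.37 for mitochondrial mass and 0.63 for thermogenic genes, beside 0.65 for the members. Their part in the differences of the members was not tested.

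**Figure D4:**
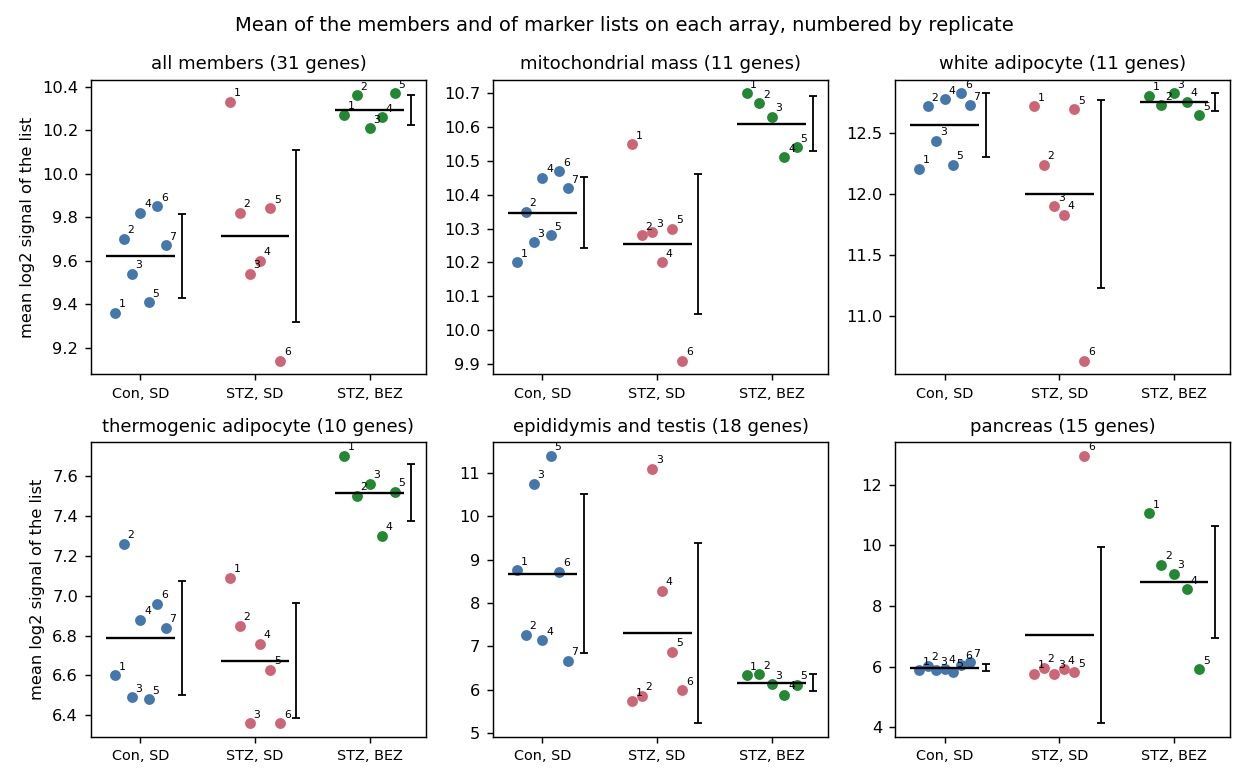
Mean log2 signal of the 31 measured members and of the genes of mitochondrial mass, white adipocytes, thermogenic adipocytes, epididymis and testis, and pancreas, with 1 point per mouse, numbered within Con, SD (n = 7), STZ, SD (n = 6) and STZ, BEZ (n = 5), the group mean as a line and the SD as a bar beside it. The STZ, BEZ mice lie together for the members and the white adipocyte, thermogenic and mitochondrial genes, and spread over the range from 5.92 to 11.05 for the pancreas genes.

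Promoter windows of 250 bases before the start were searched on both strands for the nuclear receptor half-site AGGTCA with no mismatch, and for the direct repeat AGGTCANAGGTCA, the element of PPAR and its partner RXR, with at most 2 mismatches. The half-site is part of the repeat. Of the 32 members 26 had a window in RefSeq. The half-site was found in 5 of these 26 (19.2%), against 14% of 32851 windows of all genes, and the direct repeat in 2 (7.69%), against 3.24%. Of the 8 members with a window that were called higher in STZ, BEZ vs. STZ, SD, 1 held the half-site and 0 the repeat. The 2 members with the repeat, Echs1 and Etfa, were not called in that comparison. Their stretches from 110 to 51 bases before the start are shown with the repeat in capitals, both on the strand of the gene, for Echs1 at chr7:140116472-140116531 and for Etfa, where the repeat reads on the opposite strand, at chr9:55512294-55512353, each on the minus strand of GRCm38.p6. A match is a description of these letters only.

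Echs1: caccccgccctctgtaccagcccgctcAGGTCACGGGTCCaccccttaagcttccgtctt

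Etfa: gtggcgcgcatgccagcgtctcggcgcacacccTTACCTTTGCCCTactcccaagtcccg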

How the data were processed

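RNA of visceral fat from 18 mice was hybridised to Affymetrix Mouse Gene ST arrays, 1 per mouse. Per the labels the authors summarised them with RMA in Affymetrix Expression Console 1.2. What they deposited is a log2 signal for each of 35556 probe sets. No counts stand behind these signals, so the number of arrays limits the precision. No background level is given, and no filter on low values was used. Mice of a group are separate animals.

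The platform's annotation gives 21789 probe sets a single symbol, 1621 several and 12146 none. The probe set with the highest mean was kept for each of 19938 genes. Symbols follow RefSeq for 19856 of them. A single limma fit (version 3.58.1, R 4.3.3) over the 18 arrays gave all comparisons (15 residual and 2.44 prior degrees of freedom), with Benjamini-Hochberg adjustment over all genes and calls at an adjusted p under 0.10. Folds are log2 differences turned back to a linear scale. The study used SAM at a false discovery rate of 10%. SAM was rerun here with 100 permutations as an alternative.

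For each member called in STZ, SD vs. Con, SD or STZ, BEZ vs. STZ, SD, the lowest, median and highest mouse of the larger groups and every STZ, BEZ mouse are given. Other pathway lists name called genes, or the one of smallest p where none was called. The members and lists were chosen with earlier results of these data known. Other alternatives were a stricter adjusted p of 0.05, a fold minimum of 1.5, all probe sets, mean probe sets, dim genes left out, other scalings, a variance trend, array weights, fits on 2 groups, a replicate block, covariates for other tissues, and arrays left out. The fit was tested on simulated data. Promoter sequences and positions are those of RefSeq on GRCm38.p6; 6 members had no window there.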

Additional observations from a re-analysis of the deposited data

Results flagged for a closer look

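In 93 sets of values (31 members in 3 groups), the highest or the lowest mouse was looked for that lay far from the rest of its group by Dixon's criterion, which chance alone meets in about 1 of 20 sets. Hadha was at 11.08 in STZ, SD mouse 1, with the next highest mouse at 10.63. Slc22a5, the carnitine importer, was at 6.92 in STZ, SD mouse 6, with the next lowest mouse at 8.21. These 2 are fewer than the 4.65 that chance would give. STZ, SD mouse 6 had the highest pancreas gene mean, 12.95, and the lowest white adipocyte gene mean, 10.63, of all mice.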

How the results depend on the processing

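A difference was taken as reversed if its sign changed and it was called on either side, which held for 2 values. A further 85 of 3162 values had the opposite sign without a call on either side, for 21 of 93 differences in all. Echs1 in STZ, SD vs. Con, SD went from -0.02 to 0.39 (adjusted p = 0.0267 in limma) with the white adipocyte covariate, and Slc22a5 in STZ, BEZ vs. Con, SD from -0.01 to 0.72 (adjusted p = 0.0829 in limma) with the pancreas and epididymis covariates. For STZ, SD vs. Con, SD, the 1 called higher became 0 at an adjusted p under 0.05, in a fit on only the arrays compared and with the replicate block, 5 with array weights, 7 with the pancreas and epididymis covariates, 14 with the white adipocyte covariate, 3 without the arrays with high pancreas genes and 10 without those with high genes of other organs. The 1 called lower became 0 at a fold minimum of 1.5, and 2 with array weights and with the pancreas and epididymis covariates. For STZ, BEZ vs. STZ, SD, the 9 called higher became 2 at an adjusted p under 0.05 and 15 with SAM. They became 1 in a fit on only the arrays compared and 20 with the pancreas and epididymis covariates. The count was 0 with the replicate block, with the white adipocyte covariate and without the arrays with high genes of other organs. For STZ, BEZ vs. Con, SD, the 20 called higher became 13 at an adjusted p under 0.05 and 10 with the replicate block. They became 27 with SAM and in a fit on only the arrays compared, and 28 with array weights. The 0 called lower became 1 (Cpt1a) with SAM, with array weights and in a fit on only the arrays compared. With 1 mouse left out, counts called higher were 0 to 5, 1 to 21 and 11 to 25 in the 3 comparisons in this order, and counts called lower 1 to 2, 0 to 0 and 0 to 0. The share of all genes called changed too. For STZ, SD vs. Con, SD it was 16.9% with array weights and 20% with the pancreas and epididymis covariates. It was 14.7% there without the arrays with high genes of other organs and 12.9% with the white adipocyte covariate. It fell from 10.3% to 5.46% at an adjusted p under 0.05 and to 3.09% at a fold minimum of 1.5. In a fit on only the arrays compared it was 5.13%, and with the replicate block 3.41%. For STZ, BEZ vs. STZ, SD it was 2.94% with SAM and 12.6% with the pancreas and epididymis covariates. It fell there from 0.707% to 0.0853% at an adjusted p under 0.05 and to 0.0301% with the white adipocyte covariate. In a fit on only the arrays compared it was 0.0702%, and with the replicate block 0.01%. Without the arrays with high genes of other organs it was 0.0702%. For STZ, BEZ vs. Con, SD it was 23.7% with SAM, 14.1% in a fit on only the arrays compared and 19.1% with array weights. It fell there from 5.95% to 3.02% at an adjusted p under 0.05 and to 3% with the replicate block. The cause of these changes was not tested. The replicate numbers do not pair the mice: of 16 pairs of the same number, with correlations of -0.357 to 0.7, 2 were over 0.1, so the replicate block removes degrees of freedom without a known pairing. In STZ, BEZ vs. Con, SD, 9 members kept their call under every alternative with more than 1 STZ, BEZ mouse. They were Acadvl, Acot2, Slc25a20, Mlycd, Acadl, Hadha, Hadhb, Eci1 and Etfdh. Without the arrays with high pancreas genes STZ, BEZ mouse 5 alone remains and is assumed to vary like the others. That mouse had the highest liver gene mean of all mice, 10.29.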
